A study of Mus musculus with 27 samples.

Results

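In 899 stretches of the autosomes, hepatocyte DNA of 9 inbred mouse strains was methylated to an intermediate degree in every strain. The autosomes were divided into adjoining regions of 1 kb, and a region was eligible when at least 5 cytosine positions in it were listed in all 27 samples. A region was chosen when the means of all 9 strains, each taken over its positions and over 3 samples, lay between 35 and 65%. The regions were thus chosen by their measured methylation, and their strain means are a description that carries no test. They make up 1.45% of the 61991 eligible autosomal regions (899 of 61991) and hold 10177 positions, which is 0.616% of the 1653370 shared autosomal positions.

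The samples were hepatocytes, the metabolic cells of the liver, from female mice aged 12 weeks with 3 biological replicates per strain. The wild-derived strains were WSB/EiJ, PWK/PhJ and CAST/EiJ, and the laboratory strains were NZO/HlLtJ, NOD/ShiLtJ, DBA/2J, C57BL/6J, A/J and 129S1/SvImJ. The labels name no treatment and no transgene, and all strains are inbred, so that the parental copies of a gene have the same sequence. Methylation was read by reduced representation bisulfite sequencing (RRBS), which samples the CpG-rich part of the genome next to the cutting sites of the enzyme MspI. Each position, 1 strand of a CpG dinucleotide, carries a percent methylation without a read count, which leaves its depth unknown.

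In a single molecule of DNA a CpG is either methylated or not, and a level near 50% is therefore a mixture of molecules. The best known source of such a mixture is genomic imprinting, in which the egg or the sperm sets methylation on the copy of a gene that it passes on, and that parental mark is kept in all tissues of the offspring. Imprinted genes such as Igf2, Grb10 and Peg3 act on growth and metabolism. Mixtures also occur on the X chromosome of females, where a copy is inactivated in each cell, between different cells of a tissue, and at the edges of unmethylated CpG islands, where methylation passes from low to high within a short stretch.

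The difference between an intermediate level at each CpG and an average of low and high CpGs can be read directly on the promoter sequences. Shown are the parts, inside a chosen region, of the 250 bases before the annotated start of 5 genes (RefSeq, GRCm38.p6, 5′ to 3′ on the strand of the gene). Capitals mark the CpGs listed in all 27 samples on at least 1 strand. The genes were picked after their values were seen, for their number of listed CpGs and for the contrast between them. Of the shared positions inside all autosomal start windows, 99.998% lay on the C or G of a CG (272521 of 272527), so that the coordinates of the files and of the sequences match.
Plagl1: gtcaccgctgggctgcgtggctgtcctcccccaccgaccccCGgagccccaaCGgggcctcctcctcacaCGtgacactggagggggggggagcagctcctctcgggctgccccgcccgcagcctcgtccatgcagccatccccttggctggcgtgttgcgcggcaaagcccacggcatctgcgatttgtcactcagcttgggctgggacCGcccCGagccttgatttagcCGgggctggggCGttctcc
Zrsr1: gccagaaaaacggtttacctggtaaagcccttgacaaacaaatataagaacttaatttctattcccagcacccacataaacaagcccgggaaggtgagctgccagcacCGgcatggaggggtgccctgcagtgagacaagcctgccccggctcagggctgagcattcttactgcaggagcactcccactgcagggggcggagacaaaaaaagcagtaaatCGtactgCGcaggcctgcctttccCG
Mcts2: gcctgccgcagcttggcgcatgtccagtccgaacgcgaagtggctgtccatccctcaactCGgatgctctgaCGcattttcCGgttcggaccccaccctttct
Boll: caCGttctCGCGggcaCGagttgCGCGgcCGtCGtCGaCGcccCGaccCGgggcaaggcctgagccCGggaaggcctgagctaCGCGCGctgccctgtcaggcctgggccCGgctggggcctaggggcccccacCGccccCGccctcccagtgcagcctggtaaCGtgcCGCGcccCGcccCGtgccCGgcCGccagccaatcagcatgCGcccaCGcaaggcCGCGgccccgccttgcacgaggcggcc
Slc44a4: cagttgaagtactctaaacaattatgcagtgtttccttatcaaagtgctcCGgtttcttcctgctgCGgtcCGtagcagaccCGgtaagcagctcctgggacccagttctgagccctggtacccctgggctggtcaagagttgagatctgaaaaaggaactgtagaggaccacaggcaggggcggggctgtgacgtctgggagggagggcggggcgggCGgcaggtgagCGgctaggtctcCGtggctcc

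Plagl1, an imprinted gene that encodes a zinc finger transcription factor, is shown on the plus strand at chr10:13090582-13090831. Its 7 listed CpGs had mean levels, in the order of the sequence, of 42.1, 32.2, 32.1, 33.2, 32.6, 33.4 and 41.9%. Zrsr1, an imprinted retrogene of a splicing factor that lies in an intron of Commd1, is shown on the plus strand at chr11:22971755-22972000, and its 4 listed CpGs were at 53.1, 47.1, 47.5 and 45.01%. Mcts2, an imprinted retrogene in an intron of H13, is shown on the plus strand at chr2:152686898-152687000, with 3 listed CpGs at 40.9, 41.7 and 39.5%. At these 3 imprinted genes the listed CpGs lay between 32.1 and 53.1%, and the SD over CpGs was 4.57, 3.44 and 1.12 percentage points. These levels are means of the listed strands, which could differ: at the second listed CpG of Plagl1 the strands were at 39.3 and 25.1%, and at the third at 39.7 and 24.6%.

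Boll, which encodes an RNA-binding protein of male germ cells, is shown on the minus strand at chr1:55362729-55362978. Its 30 listed CpGs ranged from 20.9 to 84.5%, with a mean of 45.6% and an SD of 16.5 points, a wider spread than at the 3 imprinted genes. Slc44a4, which encodes a membrane transporter of the choline transporter-like family, is shown on the plus strand at chr17:34914216-34914465. Its 7 listed CpGs passed from 93.8% at the first to 27.5% at the last, and the whole region, with 19 positions, averaged 51.2%. The rule admitted regions with listed CpGs in a narrow range, with a wider scatter, as Boll, and with a fall along the sequence, as Slc44a4.

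The letters TGCCGC, or GCGGCA on the other strand, are the core motif bound by ZFP57, a zinc finger protein that keeps the methylation of imprinted regions in the early embryo. Among the windows of 300 bases around annotated starts (250 before, 50 after) that overlapped a chosen region, they occurred in 4 of 12 at imprinted genes (33.3%), those of Plagl1, Hymai, Mcts2 and Meg3, of which Plagl1 and Hymai lie at the same locus. They occurred in 8 of 80 at other chosen regions (10%), those of Boll and Slc44a4 among them, and in 3643 of all 31396 autosomal windows (11.6%). Of the sequences printed above, those of Plagl1, Mcts2, Boll and Slc44a4 hold the letters once, and that of Zrsr1 does not. A match in these letters is a description of the sequence only.

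Imprinted genes held a small part of the regions. A region was assigned to an imprinted gene when it overlapped the gene widened by 5 kb on each side. At the genes of a list of known imprinted genes lay 30 of the 899 regions, or 3.34% (95% Wilson interval 2.35 to 4.72), against 307 of the 61991 eligible regions, or 0.495%. With at least 3 positions required the share was 2.45% (32 of 1304). With at least 10 positions it was 5.45% (21 of 385), against 0.551% of eligible regions. With the median over positions in place of the mean it was 7.99% (25 of 313). In the other direction, 30 of the 307 eligible regions at listed genes were chosen, or 9.77% (6.93 to 13.6). Among the 2819 eligible autosomal regions with an overall mean of 35 to 65% in which at least 1 strain lay outside the limits, 28 were at listed genes, or 0.993%. The Wilson intervals cover counting error only, and neighbouring regions at the same gene are not independent.

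The list has 2 parts. Of 40 genes at or beside a methylation mark set in a parental germ line for which an eligible region existed, 25 had a chosen region, and 28 of their 156 eligible regions were chosen (17.9%), against 1.45% of all eligible regions. Of 40 further imprinted genes, which lie inside imprinted domains or are imprinted in few tissues, 3 had a chosen region: Rtl1 and Rian, which share 1, and Gatm. These are 2 of their 152 eligible regions (1.32%), a share near that of all eligible regions, so 28 of the 30 regions at imprinted genes belong to the germ-line genes. Where genes overlap, as Peg10 and Sgce, a region was counted once among regions and under each gene among genes.

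At Peg10 and Sgce, which share a promoter mark of the egg and encode a retrotransposon-derived placental protein and a sarcoglycan, 18 positions of chr6:4747001-4748000 averaged 42.8%. The values in the 3 samples of each strain, in ascending order and in percent, were 32.3, 44.5 and 45.1 in 129S1/SvImJ, 40.4, 40.5 and 53.5 in A/J, 40.9, 57.5 and 57.9 in C57BL/6J, 28.4, 38.3 and 49.00 in CAST/EiJ, 28.6, 54.96 and 58.6 in DBA/2J, 33.5, 36.7 and 42.96 in NOD/ShiLtJ, 29.6, 39.1 and 47.3 in NZO/HlLtJ, 29.9, 35.1 and 50.6 in PWK/PhJ, and 41.6, 48.6 and 49.6 in WSB/EiJ. The strains overlapped: 2 strains, C57BL/6J and DBA/2J, had samples above 55%, and 4 strains, DBA/2J among them, had a sample under 30%. Over positions the SD was 4.90 points, from 36.8 to 48.6%, against a mean SD of 8.88 points among the samples of a strain. This spread over positions followed the strands. Where both strands of a CpG were listed, the first position lay at 36.8 to 39.0% and the second at 45.3 to 48.6%.

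At Grb10, which encodes an adaptor that restrains growth signalling, 76 positions of chr11:12026001-12027000 averaged 43.2%. The samples, in percent, were at 40.9, 44.8 and 50.4 in 129S1/SvImJ, 42.8, 44.6 and 51.9 in A/J, 43.7, 47.7 and 47.8 in C57BL/6J, 44.05, 45.2 and 47.1 in CAST/EiJ, 41.4, 41.9 and 46.5 in DBA/2J, 38.1, 38.7 and 39.8 in NOD/ShiLtJ, 36.4, 41.6 and 49.3 in NZO/HlLtJ, 40.5, 40.5 and 42.95 in PWK/PhJ, and 37.2, 39.6 and 40.1 in WSB/EiJ. Only 2 samples, 1 of 129S1/SvImJ and 1 of A/J, lay above 50%, and the lowest was at 36.4%. The mean SD among the 3 samples of a strain was 2.95 points, against the 8.88 points at Peg10 and Sgce.

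At Plagl1, chr10:13090001-13091000 held 51 positions and averaged 40.9%, the lowest mean among the 30 regions. The samples, in percent, were at 42.4, 42.4 and 44.3 in 129S1/SvImJ, 37.5, 44.4 and 49.2 in A/J, 40.03, 41.5 and 45.8 in C57BL/6J, 37.04, 41.2 and 44.3 in CAST/EiJ, 37.5, 38.8 and 43.96 in DBA/2J, 34.2, 36.1 and 42.05 in NOD/ShiLtJ, 33.6, 35.1 and 47.4 in NZO/HlLtJ, 35.8, 41.5 and 41.8 in PWK/PhJ, and 39.4, 40.8 and 46.3 in WSB/EiJ, all of them below 50%. At Gnas, a gene complex that encodes the stimulatory G protein subunit together with several parent-specific transcripts, 83 positions of chr2:174299001-174300000 averaged 43.6%, with samples from 34.8 over a median of 42.7 to 51.5%.

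**Figure D1:**
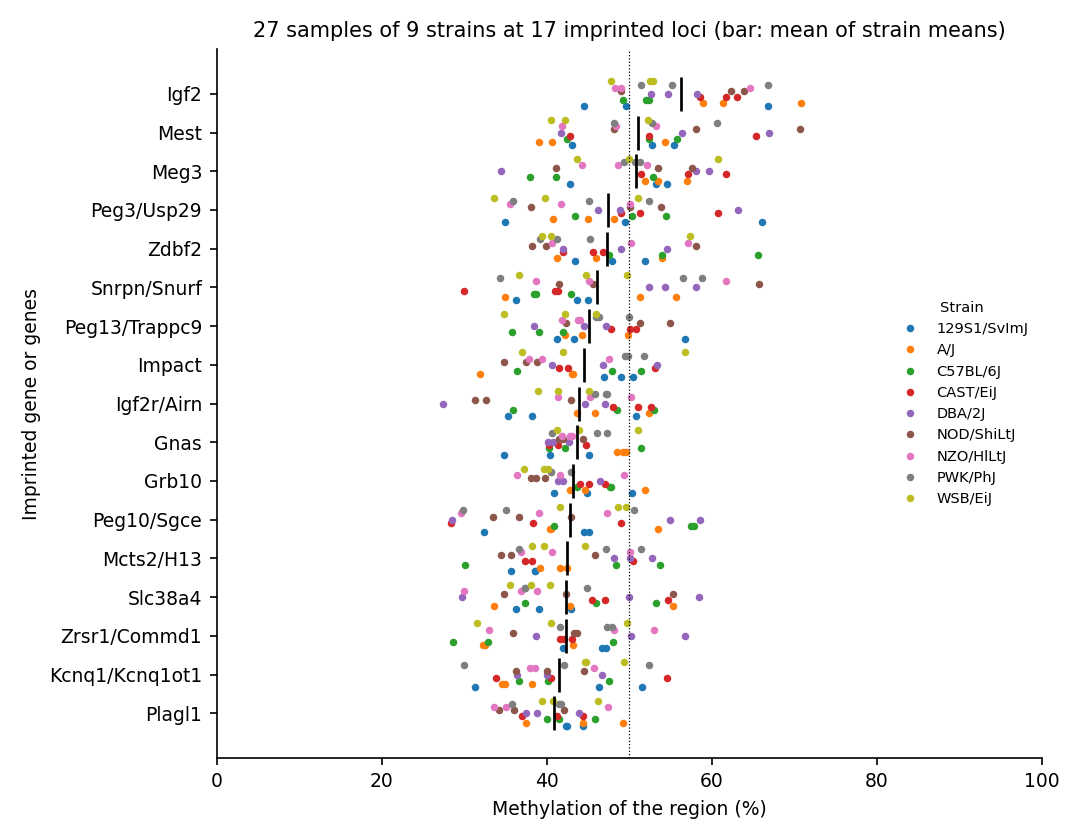
Methylation (x axis, percent) of the region with the most positions at 17 imprinted loci (y axis). Each point is 1 of 27 samples, coloured by strain, and the black bar is the mean of the strain means, which ranged from 40.9% at Plagl1 to 56.2% at Igf2; at none of the 17 loci does a strain lie apart from all the others.

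The other loci with a germ-line mark lay close to these. Mest, a hydrolase-like gene expressed from the paternal copy, was at 51.1% over 9 positions of chr6:30739001-30740000, with samples from 39.0 to 70.6% and a median of 52.4%. Peg3 and Usp29, a zinc finger gene and a protease gene that share a start region, were at 47.4% (chr7:6730001-6731000, 33.7 to 66.0%, median 48.9%). Snrpn and Snurf, at the centre of the Prader-Willi domain, were at 46.0% (chr7:60004001-60005000, 29.9 to 65.7%, median 44.7%). Impact, a regulator of translation under amino acid shortage, was at 44.5% on chromosome 18, with samples from 31.9 to 56.8% and a median of 43.2%.

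Peg13, a noncoding gene inside Trappc9, was at 45.1% over 24 positions (chr15:72809001-72810000, 34.8 to 56.7%, median 44.3%). Airn, the noncoding RNA that overlaps and silences the growth factor receptor gene Igf2r on the paternal copy, had its region in Igf2r at 43.8% (chr17:12742001-12743000, 27.5 to 53.0%, median 45.2%). Kcnq1ot1, the corresponding noncoding RNA inside the potassium channel gene Kcnq1, was at 41.5% (chr7:143295001-143296000, 29.9 to 54.6%, median 40.1%). The regions of Peg13, Airn and Kcnq1ot1 thus sat within 4 points of each other. Those of the noncoding RNA genes Meg3 and Rian lay higher, at 50.8 and 50.3%. Coding genes also lay in the narrower range, as Grb10 at 43.2% and Gnas at 43.6%.

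Mcts2 with its host gene H13 was at 42.5% (chr2:152686001-152687000, 30.1 to 53.7%, median 40.6%), and Zrsr1 and Commd1 at 42.3% (chr11:22973001-22974000, 28.6 to 56.8%, median 43.1%). Slc38a4, an amino acid transporter of the liver, was at 42.4% (chr15:97055001-97056000, 29.8 to 58.5%, median 40.4%). Zdbf2, a gene that acts on early growth, was at 47.3% (chr1:63266001-63267000, 38.2 to 65.6%, median 45.9%).

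Igf2, a fetal growth factor, and Meg3, a noncoding RNA, belong to the domains in which the sperm sets the mark. Igf2 was at 56.2%, the highest mean of the 30 regions (chr7:142665001-142666000, 8 positions, 44.5 to 70.8%, median 54.7%). Its positions ran from 34.7 to 78.0%, with an SD over positions of 15.2 points. The nearest eligible regions on its 2 sides, within 5 kb, were at 4.71 and 95.7%. Meg3 was at 50.8% (chr12:109540001-109541000, 34.5 to 61.7%, median 51.9%), and Rtl1 and Rian in the same domain at 50.3% (chr12:109608001-109609000). The other regions with a mean over 50% were those of Mest, the second region of Slc38a4, at 55.9%, and the second of Zdbf2, at 50.1%. In all, 24 of the 30 regions at imprinted genes had a mean under 50%, and their median was 45.6%. The median of the 869 regions off the list was 50.3%, with 403 of them under 50%.

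Of the 15 germ-line genes without a chosen region, some had an intermediate region in which a strain left the limits. At Cdh15, a cadherin, the eligible region nearest to 50% averaged 53.8%, with strain means from 34.8% in 129S1/SvImJ to 68.9% in NZO/HlLtJ. At H19, the noncoding RNA next to Igf2, it averaged 42.5%, and A/J at 32.7% was the only strain outside the limits. Nnat and Blcap had a region at 38.9% with 7 of 9 strains inside, and Magel2 one at 36.3% with 5 of 9. Nap1l5 and Herc3 had 70.5%, with 2 of 9 strains inside. At Copg2, Zim1, Inpp5f, Gpr1 and Rasgrf1 the region nearest to 50% was high, at 93.7, 94.1, 89.1, 87.4 and 93.2%. The lowest eligible regions of these genes were at 0.437, 0.557, 0.442, 1.44 and 1.65%. The region of Ndn was low, at 13.3%.

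A region on chromosome 9, chr9:89878001-89879000, lay 30508 bases from Rasgrf1, outside the 5 kb allowed, and was counted off the list. It was singled out after its values were seen. Its 5 positions were at 43.8 to 51.3%, and its mean was 47.5% with an SD over positions of 2.85 points. Strain means ran from 36.98% in 129S1/SvImJ to 58.7% in DBA/2J, and samples from 17.1 over 46.0 to 77.3%. The germ-line mark of Rasgrf1, a guanine nucleotide exchange factor gene, is known to lie well upstream of the gene. Chosen regions off the list within 50 kb of a germ-line gene numbered 3. The second, at 13530 bases from H19, was split between low and high positions, and the third lay at 35422 bases from H13.

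How evenly a region was methylated was not part of the rule, which used only its average. A region was called even when at least 80% of its positions had a 27-sample mean of 20 to 80%, and split when at least 25% of positions lay under 20% and at least 25% over 80%. Of the 899 regions, 392 were even (43.6%), 240 were split (26.7%) and 267 were neither (29.7%). At imprinted genes 28 of 30 were even, or 93.3% (Wilson interval 78.7 to 98.2). Off the list 364 of 869 were even, or 41.9% (38.6 to 45.2), and 239 were split, or 27.5% (24.6 to 30.6). The even share of all 899 depended on the definition: it was 21.1% with 80% of positions at 30 to 70% and 23.1% with all positions at 20 to 80%. Under the first of these definitions 27 of 30 regions at imprinted genes and 163 of 869 off the list (18.8%) were even, and under the second 27 of 30 and 181 of 869 (20.8%). With at least 80% of positions at 20 to 80%, 71.9% of the 313 regions chosen by the median over positions were even. That choice acts on evenness itself, since it asks for an intermediate median position. Of the 2819 regions with an intermediate overall mean that were not chosen, 60.7% were even and 4.61% split.

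The imprinted exceptions were at Gatm, a creatine synthesis enzyme, and at Kcnq1. The region of Gatm, chr2:122611001-122612000, was split, with an SD over positions of 41.9 points. A second region of Kcnq1, chr7:143154001-143155000, far from the start of Kcnq1ot1, had an SD of 35.04 points over 6 positions.

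The SD over positions separated the groups further. Its median was 5.16 points at imprinted genes, 27.3 points off the list and 19.6 points in the intermediate regions not chosen. Taken within single samples, the medians were 13.6, 30.9 and 23.9 points. Among the regions with at least 8 positions, 14 had an SD under 5 points, and all 14 were at imprinted genes. Under 8 points there were 24, of which 20 were imprinted, and under 15 points 72, of which 24 were imprinted. Without this minimum of positions, 18 regions had an SD under 5 points, of which 15 were imprinted. Under 8 points there were then 37, of which 21 were imprinted, and under 15 points 127, of which 26 were imprinted.

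**Figure D2:**
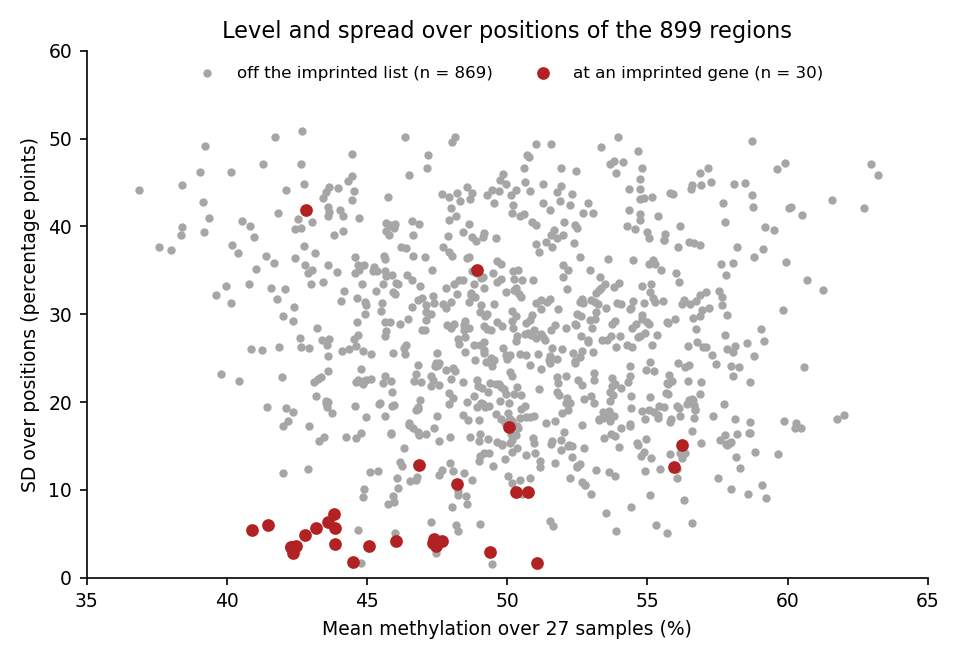
Mean methylation over 27 samples (x axis, percent) against the SD over positions (y axis, percentage points) of the 899 regions, each a point, with the 30 at imprinted genes in red. The red points gather at a low SD (median 5.16 points) and below 50%, and the grey points spread up to an SD of 50.9 points.

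Neighbouring positions showed the same. Positions 1 bp apart are the 2 strands of a CpG or, where CpGs adjoin, the G of 1 CpG and the C of the next. The median difference between positions 1 bp apart was 2.64 points at imprinted genes (310 pairs) and 2.45 points off the list (3704 pairs). Between consecutive positions 2 to 100 bp apart it was 2.85 points at imprinted genes (299 pairs) and 11.8 points off the list (3916 pairs). Even regions off the list had the largest step, 15.7 points, against 2.84 points at 1 bp, and split ones had 5.22 against 1.75 points. By these medians, positions 2 to 100 bp apart at imprinted regions differed by about as much as those 1 bp apart. At other even regions they differed by more. Pairs within a region share its samples, and these medians carry no test.

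**Figure D3:**
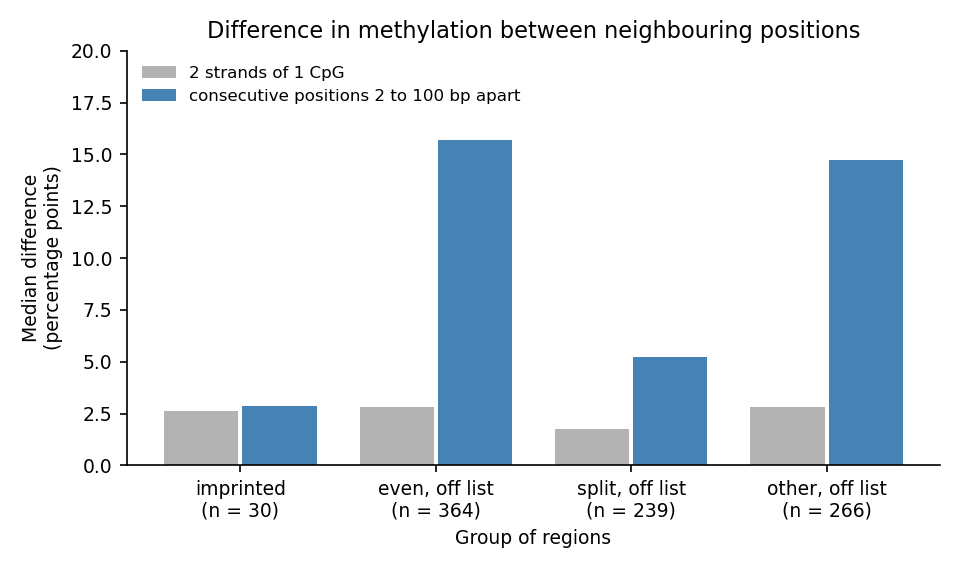
Median absolute difference in 27-sample mean methylation (y axis, percentage points) between the strands of a CpG (grey) and between consecutive positions 2 to 100 bp apart (blue), in 4 groups of regions with the number of regions below each (x axis). The blue and grey bars are close at imprinted genes, at 2.85 and 2.64 points, and apart in the other 3 groups.

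Along the coordinate, 194 of the 239 split regions off the list (81.2%) crossed 50% once, so that their low and high positions lay on opposite sides of a single point. By definition a split region crosses 50% at least once. Ephb2, an ephrin receptor, had 45 positions from 1.61 to 95.4% in chr4:136834001-136835000, and its samples lay between 33.5 and 42.1% with a median of 38.1%. Epha2, a related receptor, had 41 positions from 4.99 to 100% in chr4:141308001-141309000, with samples from 46.9 over 49.9 to 54.4%. Foxa3, a liver transcription factor, had 41 positions from 6.93 to 96.4% (chr7:19014001-19015000, samples 36.97 to 56.6%, median 48.0%). Sytl1, a vesicle trafficking gene, was at 55.0% with 39 positions from 2.52 to 97.3%, and Sirt7, a nuclear deacetylase, at 46.6% with 38 positions from 0.154 to 95.8%. Ephb2, Epha2 and Sytl1 crossed 50% once, Sirt7 2 times and Foxa3 4 times. The samples of a strain lay close together in all 5, with a mean SD of 1.31 to 2.54 points.

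**Figure D4:**
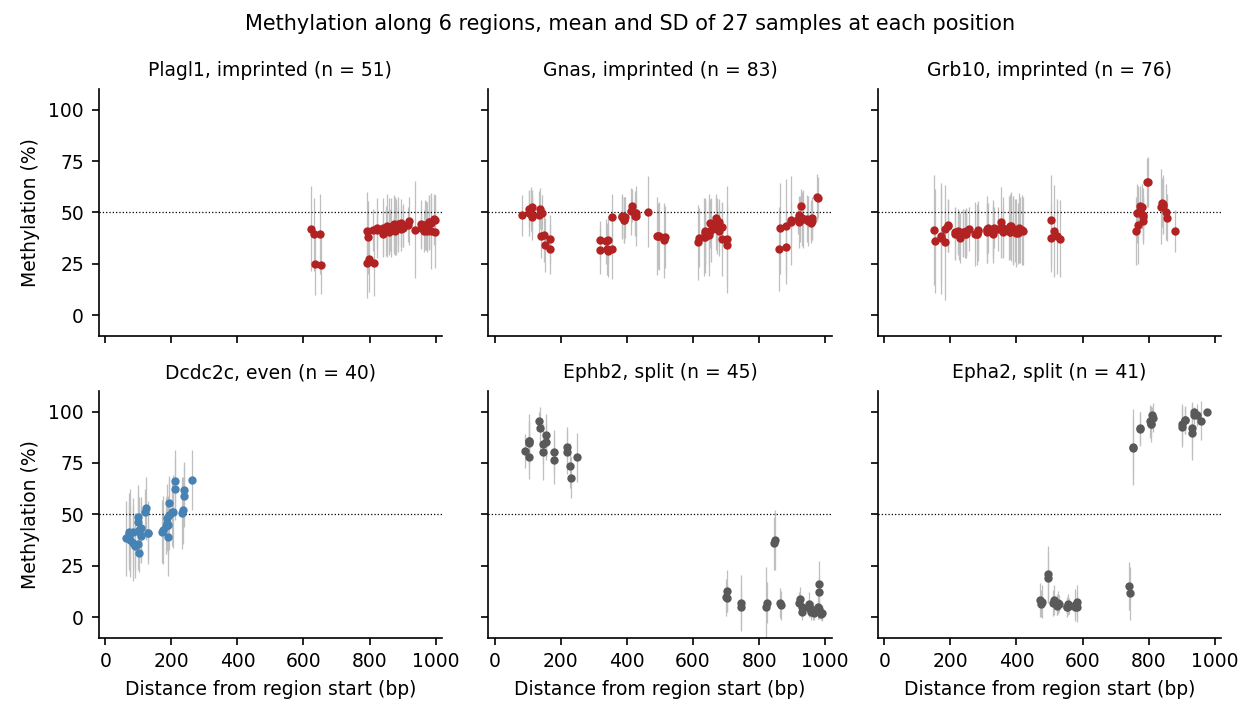
Methylation (y axis, percent) at each position along 6 regions (x axis, distance from the region start in bp); points are means and grey bars SDs of 27 samples. The positions of Plagl1 lie between 24.6 and 46.6%, those of Gnas between 31.4 and 57.3%, those of Grb10 between 35.4 and 64.9%, those of Dcdc2c between 31.3 and 66.8%, and Ephb2 and Epha2 change once between low and high.

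The next eligible regions on both sides were compared as well. Of the 54 split regions off the list with an eligible neighbour on both sides within 5 kb, 27 had 1 neighbour under 35% and the other over 65% (50%), and 23 had 1 under 20% and the other over 80%. The first was so for 29 of 67 regions off the list that were neither even nor split (43.3%), for 23 of 77 even ones (29.9%), and for 79 of 198 off the list in all (39.9%). At imprinted genes only 7 regions had both neighbours, and 5 of these had a neighbour at 35 to 65%. Off the list, 37 of 198 had such a neighbour (18.7%). The neighbour can itself be a chosen region, as at Gnas (47.7%), Zrsr1 and Commd1 (49.4%) and Slc38a4 (55.9%). Nothing is therefore read from this contrast. Chosen regions seldom lay side by side: merging those within 5 kb left 875 blocks, 23 of them with more than 1 region. Most had no adjoining region that could be chosen. Of the 869 off the list, 193 had an eligible region directly before them and 203 directly after. The largest block, of 3 regions, was at Zrsr1 and Commd1, with means of 47.5, 42.3 and 49.4%.

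Positions not listed in all 27 samples, but in at least 1 sample of every strain, were not used by the rule. Regions with at least 3 of them numbered 9 at imprinted genes, and in 8 these positions averaged 35 to 65%. At Gnas they were at 41.0% (8 positions) against 43.6%, and at Grb10 at 51.4% (10 positions) against 43.2%. The exception was the second region of Slc38a4, at 78.8% over 13 such positions. Off the list, the other positions averaged 35 to 65% in 118 of 295 regions (40%). In the intermediate regions that were not chosen the share was 44.1% (of 895), so that off the list the chosen regions held no larger share than these.

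Off the list, 4 regions with at least 8 positions had an SD over positions under 8 points. The lowest, 5.37 points, was within Nrxn2, a synaptic adhesion gene (chr19:6485001-6486000). That region was at 53.9%, with samples from 45.2 over 53.6 to 65.1%, and its neighbours were at 83.8 and 83.3%. A region on chromosome 8, chr8:92265001-92266000, lay 60031 bases from the noncoding gene Crnde and 91796 bases from Irx5, a developmental homeobox gene. It was at 51.6%, with an SD over positions of 5.94 points and samples from 32.2 over 52.4 to 64.8%. A region on chromosome 15, chr15:87963001-87964000, was at 55.3% with an SD of 6.01 points, and Gm31458, a noncoding gene, was at 51.5% with an SD of 6.52 points. The mean SD among the samples of a strain was 3.82, 6.53, 6.36 and 4.56 points in these 4 regions.

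Dcdc2c, a doublecortin domain gene, had 40 positions in chr12:28552001-28553000. This was the most among the 10 even regions off the list with the lowest SD, taken from those with at least 8 positions. The region of Dcdc2c was at 46.0% with an SD over positions of 8.68 points and samples from 27.2 over 44.6 to 66.3%. Beyond the rule for naming and seen afterwards, P4ha3, a collagen prolyl hydroxylase, and Ptgir, the prostacyclin receptor, had SDs of 1.53 and 1.74 points, but over only 5 positions each. The region of P4ha3 (chr7:100289001-100290000) was at 49.5%, with samples from 18.3 to 72.7%, and that of Ptgir (chr7:16908001-16909000) at 44.8%, with samples from 33.9 to 55.5%. A region in Pfn1, which encodes the actin-binding protein profilin, was at 52.7% (chr11:70652001-70653000), while its neighbours were at 0.526 and 0.695%. Its SD over positions was 10.9 points.

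The 49 X-chromosome regions within the same limits, of 1601 eligible ones (3.06%), were a second reference. There 43 of 49 were even (87.8%) and none was split, and the median level was 46.9%. Their median SD over positions, 15.02 points, lay between the imprinted and the other autosomal regions, and consecutive positions differed by 11.7 points against 3.47 points between strands. The X regions were thus close to the imprinted ones in the share that was even, and close to the regions off the list in the step between neighbouring positions.

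Off the list, the regions lay away from gene starts. Of 838 not on chromosome 18, for which no start windows were at hand, 46 held an annotated start (5.49%), against 18.6% of eligible regions. The median distance to a start was 10805.5 bases, against 7731, and the median distance to a gene end was 3728 bases, against 1937. Within a gene lay 628 of 869 (72.3%), against 80.9% of eligible regions, and within a protein-coding gene 61.8%, against 73.6%. The intermediate regions not chosen were alike, with 6.50% holding a start and 71.4% in a gene. Even regions lay at a median of 13737 bases from a start and split ones at 9316. At imprinted genes 5 of 29 held a start (17.2%), and 13 of 30 lay in a noncoding RNA gene (43.3%), against 12.3% of eligible regions. The list of imprinted genes itself holds noncoding RNA genes, such as Airn, Kcnq1ot1 and Meg3, so nothing is read from this contrast.

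Gene families and marker genes were counted beside the 1.45% of all eligible regions that were chosen. The clustered protocadherins, adhesion genes of which each neuron uses its own few promoters, had 8 chosen regions among 66 eligible (12.1%), all on chromosome 18. Of these, 3 were even and 2 split: Pcdha1 was at 50.04% (SD over positions 18.8 points), Pcdhb22 at 54.8% (13.8 points), and a region of Pcdhgb2 at 55.4% (19.6 points). Zinc finger genes had 15 of 1279 (1.17%), 10 of them even. Hox genes had none of 191, and olfactory and vomeronasal receptors none of 103. Among markers of liver cells, hepatocyte genes had 1 of 55 (Foxa1, at 48.8% with positions from 1.54 to 82.3%), zonation genes 1 of 65 (Ass1, a split region at 56.1%), immune genes 1 of 24 (Vav1, at 60.5%), and endothelial, stellate and biliary genes none of 50. The 19 autosomes each held regions, from 0.621% of eligible regions on chromosome 16 (11) to 1.82% on chromosome 4 (85).

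The labelled cell type was set against methylation within 1 kb of the ends of marker genes with at least 5 shared positions. It had a median of 6.69% at 8 of 15 hepatocyte genes (0.473 to 32.5%). At 4 of 12 immune genes the median was 75.4% (6.77 to 93.2%), with Csf1r, a macrophage receptor, at 93.2%, Clec4f, a Kupffer cell gene, at 90.4%, Vav1, a signalling gene of blood cells, at 60.5% and Spi1, a myeloid transcription factor, at 6.77%. At 9 of 16 endothelial, stellate and biliary genes it was 24.3% (1.03 to 46.3%). Methylation near ends is not expression, the remaining markers had too few positions, and the part of other cells in the intermediate levels was not tested.

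Across samples, 801 to 869 of the 899 regions were themselves within 35 to 65%, with the lowest number in C57BL/6J replicate 1. The mean over the regions off the list reached 52.7% ± 0.273 (SD, n = 3) in PWK/PhJ, the highest strain, followed by A/J, at 52.1% ± 0.517 (SD, n = 3) and CAST/EiJ, at 51.7% ± 0.257 (SD, n = 3). The lowest means were 49.0% ± 0.514 (SD, n = 3) in C57BL/6J, 49.2% ± 0.193 (SD, n = 3) in DBA/2J and 49.2% ± 0.621 (SD, n = 3) in WSB/EiJ, which differ by less than the SD of C57BL/6J. Among all 899 regions, PWK/PhJ was the highest strain at 201, A/J at 175 and CAST/EiJ at 175, while C57BL/6J was the lowest at 148 and WSB/EiJ at 147. At imprinted genes the order was another: DBA/2J was highest with 47.6% ± 1.11 (SD, n = 3) and WSB/EiJ lowest with 44.7% ± 0.501 (SD, n = 3), and the samples of both overlapped those of other strains. The files of C57BL/6J name the mitochondrial chromosome differently from all others, and a difference in processing cannot be told apart from the strain.

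**Figure D5:**
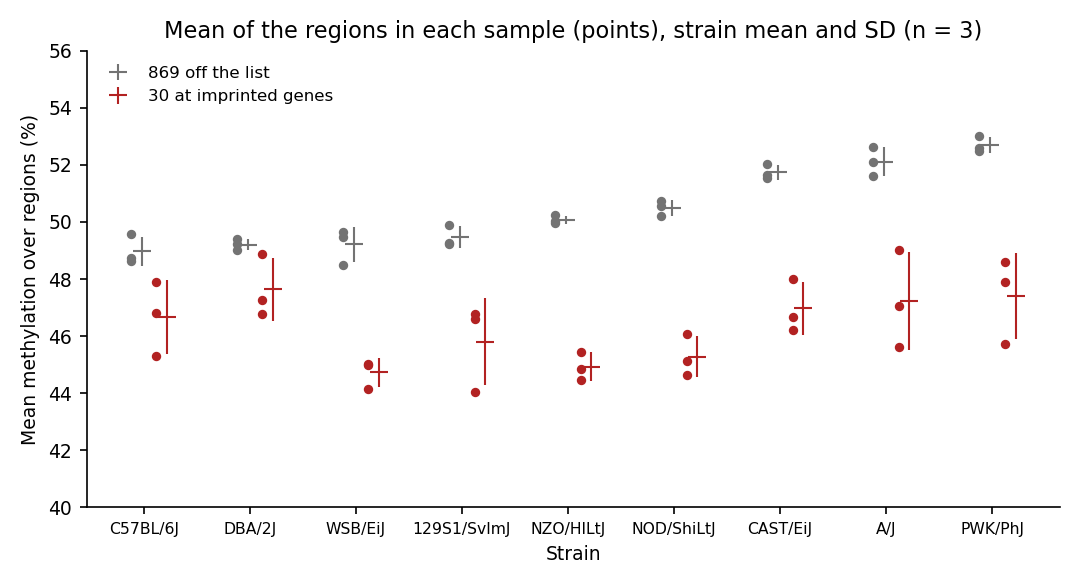
Mean methylation over the 869 regions off the list (grey) and the 30 at imprinted genes (red) in each sample (points) of 9 strains (x axis), with the strain mean and SD (n = 3); the y axis, in percent, starts at 40. The grey means rise from 49.0% in C57BL/6J to 52.7% in PWK/PhJ, and the red ones follow another order.

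Differences between strains were tested over all autosomal and X regions with limma's moderated F test and Benjamini-Hochberg adjustment. Because the limits of 35 and 65% already bound the strain means, the counts among the chosen regions are given only beside those of all regions. An adjusted p under 0.05 was reached by 304 of the 899 (33.8%), against 26.1% of all 45600 regions tested, and with a range of strain means of at least 25 points by 31 (3.45%), against 8.01%. At imprinted genes 1 of 30 reached it, a region of Kcnq1 (chr7:143412001-143413000) with strain means from 38.8 to 57.8%.

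The range of strain means, which the limits bound, had a median of 12.7 points at imprinted genes and 14.5 points off the list. The SD among the 3 samples of a strain, which the rule did not bound, had a median of 6.06 points at imprinted genes and 4.42 points off the list. It was 3.13 points in split regions and 5.21 in even ones. At imprinted genes, with a median of 16 positions against 8 off the list, samples of a strain thus differed more, although positions within a sample differed less. Among the named imprinted regions it ran from 2.91 points at Gnas, with 83 positions, to 8.88 at Peg10 and Sgce, with 18, and was 5.91 points at Igf2, with 8.

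At the limits, the chosen region nearest to 35% was chr11:102062001-102063000, at 35.004% in C57BL/6J, and the one nearest to 65% was chr7:119516001-119517000, at 64.992% in A/J. Just outside were chr12:17002001-17003000, at 34.989% in A/J, and chr8:95675001-95676000, at 65.0005% in WSB/EiJ.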

How the data were processed

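Hepatocyte DNA of 27 mice, 3 per strain, was analysed by RRBS with an MspI-based kit, per the labels' protocols. The deposited lists give the percent methylation of single positions between 0 and 100, per the file headers, without read counts. The depth is therefore unknown, and no counting interval could be given for a methylation value. The submitters' processing notes name Trim Galore 0.6.3, Bowtie2, Bismark 0.22 and the builds GRCm38 and mm10; settings, coverage filters and the handling of strain variants are not given in the sources used here. Between 2903699 and 3155600 autosomal and X positions were listed per sample, and 1692387 in all 27 samples.

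From these percentages 1 kb region means, strain means and the spread over positions were computed, with both strands of a CpG kept as separate positions. The strain label gave each sample its group. Genes were taken from the RefSeq table of GRCm38.p6, in which 40 of 41 germ-line genes and 45 of 47 further imprinted genes were found. The limma test used log2((percent + 5)/(100 - percent + 5)) on regions with a mean of 2.5 to 97.5%. The test was tested on simulated regions with known shifts. A test on read counts was not run, since the files hold percentages. Named regions are, for each germ-line gene, the chosen region with the most positions, then the 10 even regions off the list with the lowest SD among those with at least 8 positions, the 5 split ones with the most positions and those at the limits. Every other region or gene named in the text falls outside this rule and was picked after its values were seen. The regions, gene lists and tests were chosen with earlier results of these data known. Alternatives were other limits, minimum numbers of positions, averages, windows around genes, definitions of even, and each sample left out. Python 3.11.15, numpy 2.4.6, pandas 2.3.3, scipy 1.17.1, matplotlib 3.10.9, R 4.3.3 and limma 3.58.1 were used.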

Additional observations from a re-analysis of the deposited data

How the results depend on the processing

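The count of regions follows the limits: 1870 regions had all strain means at 30 to 70% and 271 at 40 to 60%, by construction. With at least 10 positions 385 remained, all among the 899. With the median over positions in place of the mean there were 313, of which 279 were shared with the 899; the cause was not tested. The share at imprinted genes was 5.45% with at least 10 positions, 7.99% with the median and 4.43% for limits of 40 to 60%. It was 2.45% with at least 3 positions and 2.62% for limits of 30 to 70%. With positions in 2 of 3 samples of every strain it was 2.74%, and with regions shifted by 500 bp 2.82%. The even share was 49.0% for limits of 30 to 70%, 30.6% for 40 to 60%, 33.0% with at least 10 positions, 71.9% with the median, 39.5% with positions in 2 of 3 samples of every strain and 37.3% with strands averaged and at least 3 CpGs required in place of 5 positions. With even redefined as 80% of positions at 30 to 70% it was 21.1%, and with all positions at 20 to 80% it was 23.1%. With each of the 27 samples left out in turn there were 866 to 911 regions, 3.09 to 3.49% at imprinted genes and 41.7 to 44.1% even. Of the 960 alternative levels of the 32 named regions, 11 moved beyond the spread between replicates, all in split regions.

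Regions called different among strains by limma, with an adjusted p under 0.05 and a range of strain means of at least 25 points, numbered 3651, and 1278 with at least 10 positions, where fewer were tested. With the replicate number as a block there were 3499. Same-numbered samples of different strains correlated at -0.041 to 0.0375 over 76 pairs (median 0.00385). Differently numbered ones correlated at -0.0341 to 0.0417 over 248 pairs (median -0.00133). With correlations this small, the numbers were not taken as a pairing, and whether same-numbered samples shared a batch was not tested. Of the 27 samples, 10 were nearest to their own number. The count expected without a pairing was not computed, so nothing is read from it. Without read counts the precision of a single position cannot be given.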
